A study of Homo sapiens with 16 samples.

Results

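Ferritin and the other genes of cellular iron handling were followed in MCF10A cells, a spontaneously immortalized, non-tumorigenic line of human breast epithelium. The 8 genes, of 26475 in the table, were FTL, FTH1, TFRC, NCOA4, IREB2, ACO1, SLC11A2 and SLC40A1. The set was chosen by the difference in FTL between the 2 inhibitor groups, in which FTL was lower with DDR1i than with RUNXi, and the other members are its partners in iron handling. RNA-seq had been carried out on 16 libraries in 4 groups of 4. Control cells received the vehicle DMSO and no collagen, and the collagen group received DMSO with collagen at 0.05 mg/mL for the last 24 h before harvest. The remaining groups received the same collagen together with an inhibitor that was present for 48 h, either DDR1-IN-1 (DDR1i, an inhibitor of the collagen receptor kinase DDR1) at 2 μM or AI-10-104 (RUNXi, which keeps RUNX transcription factors from their partner CBFβ) at 5 μM. All libraries came from 1 established line, and the labels do not state that replicates were separate cultures, so that p-values measure only the spread between these samples.

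Cells take up iron bound to transferrin through the transferrin receptor and store what they do not use inside ferritin, a hollow shell built of light and heavy chains. Iron regulatory proteins sense the iron of the cytosol and, when it is scarce, bind a short hairpin called the iron-responsive element (IRE). Bound at the start of a transcript they block its translation, as in ferritin, and bound near the end of the transferrin receptor transcript they protect it from decay. RNA-seq measures transcript abundance and reads neither translation nor iron. In bulk libraries a lower share of cells that express a gene and less RNA per cell cannot be told apart.

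The IREs are shown because they are the regulatory sequence that the ferritin chains, the iron exporter and the transferrin receptor have in common. They were found in the canonical transcripts of the GENCODE annotation on GRCh37 and matched the genome. The search, on the transcript strand only, was for a C, 5 bases, the loop CAGTGN with any last base but G, and 5 bases that pair with the 5 before the loop, G-U pairs allowed. Capitals mark the loop in these windows of 28 bases.
FTL 5′ UTR, exon 1 of 4, chr19:49468592-49468619, + strand: ctcttgcttcaaCAGTGTttggacggaa
FTH1 5′ UTR, exon 1 of 4, chr11:61735047-61735074, − strand: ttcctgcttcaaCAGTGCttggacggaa
SLC40A1 5′ UTR, exon 1 of 8, chr2:190445388-190445415, − strand: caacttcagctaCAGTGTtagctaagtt
TFRC 3′ UTR, exon 19 of 19, chr3:195777851-195777878, − strand: aattatcggaagCAGTGCcttccataat
TFRC 3′ UTR, exon 19 of 19, chr3:195777447-195777474, − strand: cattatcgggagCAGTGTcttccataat
TFRC 3′ UTR, exon 19 of 19, chr3:195777382-195777409, − strand: ctgtatcggagaCAGTGAtctccatatg
TFRC 3′ UTR, exon 19 of 19, chr3:195777335-195777362, − strand: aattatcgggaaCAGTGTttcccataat

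The motif was rare. Of 19869 canonical coding transcripts searched, 10 (0.0503%) held it in the 5′ UTR and 98 (0.493%) in the 3′ UTR. FTL, FTH1 and SLC40A1 were among the 10, and TFRC held 4 copies. Elements whose stem or loop departs from the searched pattern are not counted, so 4 is the number of matches only. The canonical transcripts of NCOA4, IREB2, ACO1 and SLC11A2 held no match, which says only that these letters are not in them. In FTL the hairpin lay 33 bases into a transcript of 871 bases, and in FTH1 39 bases into one of 1203. The TFRC copies lay between positions 3295 and 3827 of 5012, well beyond the end of the coding sequence at 2354.

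**Figure D1:**
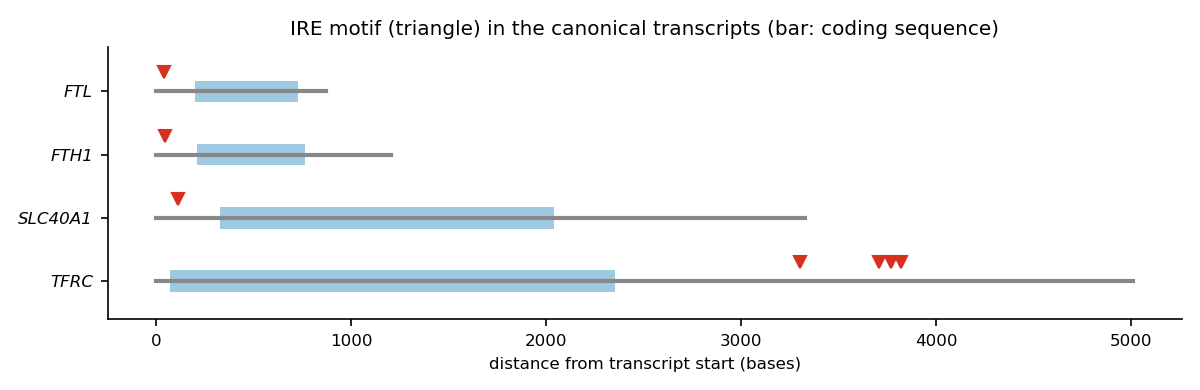
Position of the IRE motif (red triangles) along the canonical transcripts of FTL, FTH1, SLC40A1 and TFRC, with the distance from the transcript start in bases on the x axis and the coding sequence as a blue bar. The motif sits before the coding sequence in the first 3 genes and 4 times after it in TFRC.

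Levels are given as CPM, counts scaled to the size of the library, after TMM scaling over all 16 libraries, and as RPKM, which also divides by the length of the canonical transcript in kilobases, where genes are compared with each other. Library totals were 12184619 to 44332378 counts in the control, 17570707 to 27695778 with collagen, 16173156 to 24133596 with DDR1i and 15558341 to 26162434 with RUNXi. The authors had dropped collagen replicate 3 as an outlier. It did not enter the main fits of edgeR, and its values are named. It did enter the tests of the balance of the ferritin chains and of outliers, and the alternatives that name it. The markers fixed for epithelial and basal cells summed to between 9497 and 12582 CPM with DDR1i and to between 14074 and 19615 CPM in the other groups, so that DDR1i did not overlap the rest. This sum is mostly keratin. With DDR1i the means were 7984 CPM for KRT5, 2059 for KRT14 and 1204 for KRT17, beside 59.3 for TP63, 94.7 for CDH1 and 27.8 for EPCAM. Of these 6 markers KRT14, a keratin of basal cells, was lower with DDR1i than with collagen (log2 fold change −0.90, quasi-likelihood test of edgeR, Benjamini-Hochberg adjusted p = 0.00123). The other 5 did not pass, with log2 fold changes of −0.91 for KRT17, −0.31 for KRT5, −0.58 for EPCAM, −0.02 for TP63 and 0.31 for CDH1. Endothelial markers summed to at most 2.40 CPM with CDH5 at 0, and erythroid markers to at most 0.240 CPM, with 3 of 4 at 0 in every library. Fibroblast markers summed to between 5.42 and 32.9 CPM and immune markers to between 11.8 and 34.5 CPM, with CD163 at 0. The part of these differences in the levels of the iron genes was not tested.

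Per length, the ferritin heavy chain was the most abundant transcript of the set. In control cells FTH1 stood at 3038 ± 419.3 RPKM (SD, n = 4) and FTL at 554.6 ± 21.6 RPKM. NCOA4, the receptor that carries ferritin to lysosomes for degradation, had 55.7 ± 6.74 RPKM and TFRC had 54.8 ± 8.81 RPKM, so that this pair lay within its spread. The iron regulatory proteins followed, with IREB2 (IRP2) at 11.2 ± 1.61 RPKM and ACO1 (IRP1, which is cytosolic aconitase when it holds its iron-sulfur cluster) at 7.95 ± 0.395 RPKM. SLC11A2, the transporter DMT1 that moves iron out of the endosome, had 7.74 ± 2.89 RPKM, which lay within the spread of ACO1. SLC40A1, ferroportin, the only known exporter of cellular iron, had 5 counts over all 16 libraries, 2 in control replicate 1 and 3 in DDR1i replicate 2, and 0 in the other 14. It did not pass the filter on low counts and was not tested, so that 7 of the 8 genes enter the counts that follow.

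**Figure D2:**
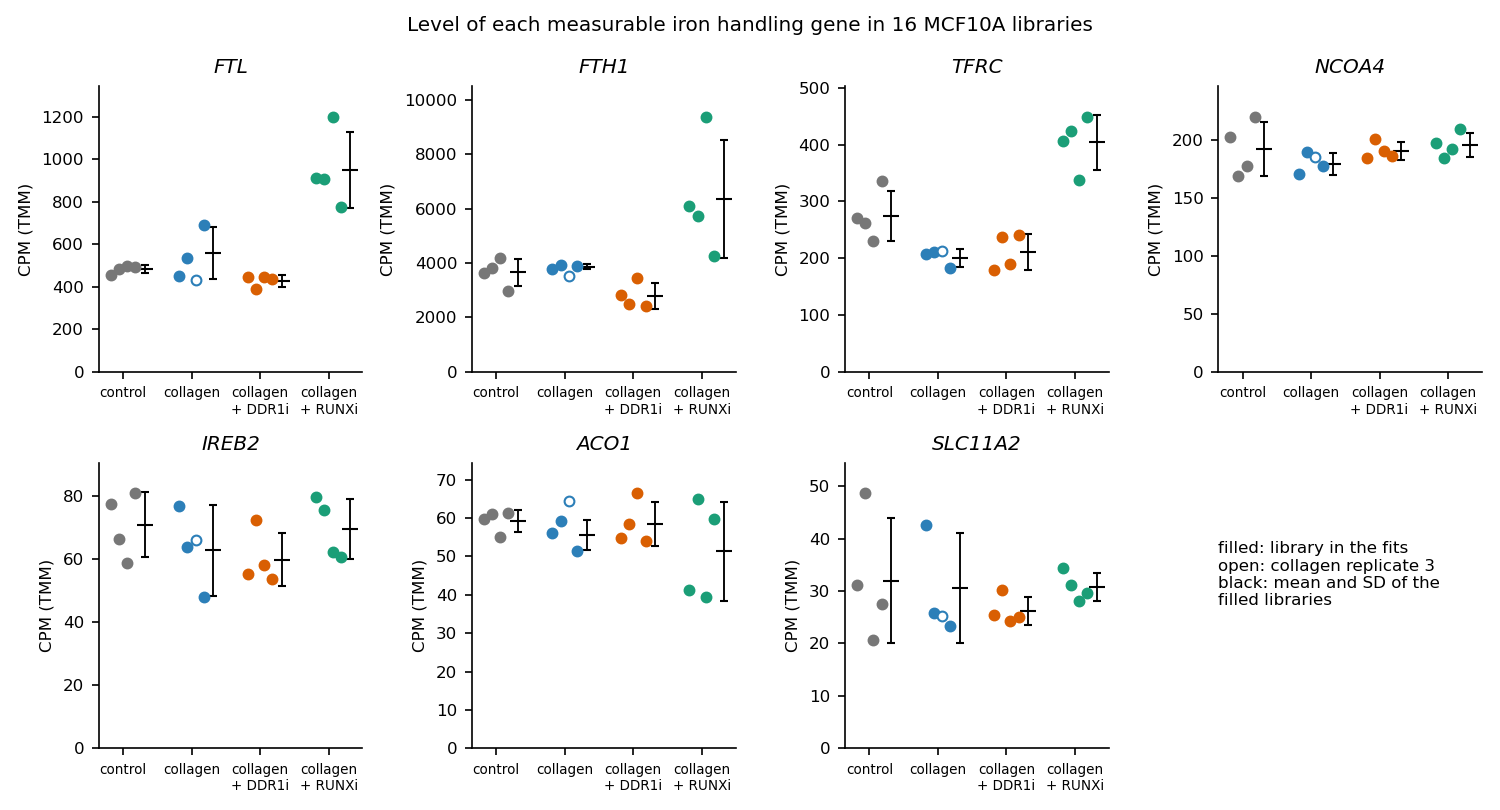
CPM (linear y axis, TMM scaled) of the 7 tested genes in every library by group, replicates 1 to 4 from left to right. Open circles are collagen replicate 3, and black lines give the mean and SD of the filled libraries. The 4 RUNXi libraries lie above the other 12 for FTL, FTH1 and TFRC, and the groups overlap for the other 4 genes.

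FTL (chr19:49468566-49470136, + strand) encodes the light chain, which helps iron to mineralize inside the shell. Control replicates 1 to 4 had 457.4, 481.2, 499.7 and 493.9 CPM, and collagen replicates 1, 2 and 4 had 449.8, 535.8 and 691.4 CPM, with 430.2 CPM in collagen replicate 3. DDR1i replicates 1 to 4 had 445.5, 387.9, 446.1 and 434.1 CPM. RUNXi replicates 1 to 4 had 913.2, 908.0, 1199.6 and 772.9 CPM. Every RUNXi library was thus above the highest of the other 12, which was collagen replicate 4, and every DDR1i library was below the lowest control library, while 3 of the 4 were above collagen replicate 3. The order of the means was DDR1i (428.4 ± 27.5 CPM), control (483.0 ± 18.8 CPM), collagen (559.0 ± 122.5 CPM, n = 3) and RUNXi (948.4 ± 179.6 CPM), with n = 4 where not given. DDR1i and collagen overlapped, as did collagen and control.

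FTH1 (chr11:61727190-61735106, − strand) encodes the heavy chain, which oxidizes iron as it enters the shell. Control replicates 1 to 4 had 3628, 3832, 4179.5 and 2979.8 CPM, and collagen replicates 1, 2 and 4 had 3777, 3945 and 3892 CPM, with 3539.8 CPM in replicate 3. DDR1i replicates 1 to 4 had 2822, 2491, 3464 and 2411 CPM, while RUNXi replicates 1 to 4 had 6103, 5716, 9389 and 4249.9 CPM. All 4 RUNXi libraries were above the other 12, narrowly so for replicate 4, and RUNXi replicate 3 stood far above the rest of its group. DDR1i overlapped the control, whose replicate 4 was low, and lay below every collagen library. Among all genes FTH1 ranked 3 to 8 by counts in the RUNXi libraries, where it took 0.426% to 0.947% of all counts, and ranked 8 to 32 in the other 12. It took 0.236% to 0.347% of counts with DDR1i.

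TFRC (chr3:195739382-195809024, − strand) encodes transferrin receptor 1, the main route of iron into the cell. Control replicates 1 to 4 had 270.6, 261.2, 230.8 and 335.7 CPM, and collagen replicates 1, 2 and 4 had 206.8, 211.4 and 182.9 CPM, with 213.2 CPM in replicate 3. DDR1i replicates 1 to 4 had 178.3, 237.3, 190.0 and 240.0 CPM, and RUNXi replicates 1 to 4 had 405.9, 423.3, 337.0 and 449.1 CPM. The 4 RUNXi libraries were above the other 12, but replicate 3 exceeded control replicate 4 by less than the spread within either group. All 4 collagen libraries were below all 4 control libraries, and DDR1i overlapped both groups.

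All 4 RUNXi libraries exceeded the other 12 in 3 of the 7 genes. Over all 13518 genes that passed the filter in the 4 groups, the same was found for 48 (0.355%). Because the set was chosen by FTL in these RUNXi libraries, this count is a description.

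NCOA4 (chr10:51565199-51590734, + strand) varied little, between 169.6 and 220.5 CPM over all libraries, with both extremes in the control group. IREB2 (chr15:78729773-78793795, + strand) ranged from 47.9 CPM in collagen replicate 4 to 80.8 CPM in control replicate 4. ACO1 (chr9:32384601-32454767, + strand) ranged from 39.4 to 66.5 CPM. In ACO1 the RUNXi group was split, with 41.3 and 39.4 CPM in replicates 1 and 3 and 64.9 and 59.7 CPM in replicates 2 and 4. SLC11A2 (chr12:51373184-51422349, − strand) ranged from 20.7 to 48.7 CPM, and its highest values were single libraries, control replicate 2 and collagen replicate 1 (42.6 CPM). For these 4 genes no group stood apart from the others.

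The comparison that chose the set, DDR1i against RUNXi, is given without a test. The fitted log2 fold changes were −1.14 (SE 0.131) for FTL, −1.18 (SE 0.180) for FTH1 and −0.93 (SE 0.121) for TFRC. The 4 remaining genes had values of −0.04 for NCOA4, −0.21 for IREB2, 0.19 for ACO1 and −0.23 for SLC11A2. Over all 13548 genes in this fit, 0.568% passed an adjusted p of 0.05. By fitted fold change, counted from the lowest, FTH1 ranked 274, FTL 290 and TFRC 439. FTL was the gene that chose the set, and FTH1 and TFRC were not ranked by the rule but share its libraries.

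To ask what RUNX inhibition did to these genes in cells on collagen, RUNXi was compared with collagen alone. The light chain of ferritin and the transferrin receptor rose, and 2 of the 7 genes passed the test, beside 4.05% of the 13548 genes tested. Without FTL, whose RUNXi values chose the set, 1 of 6 passed. TFRC was higher by a log2 fold change of 1.01 (SE 0.133, quasi-likelihood test of edgeR, Benjamini-Hochberg adjusted p = 9.87e-05). FTL was higher by 0.76 on the log2 scale (SE 0.142, adjusted p = 0.00519 in the same edgeR test), a value that is not independent of the rule, since the RUNXi libraries entered it. FTH1 had a fold change nearly as large, 0.71 on the log2 scale, with a wider error (SE 0.195), and missed the threshold at adjusted p = 0.0507 in edgeR. Without RUNXi replicate 4 its value was 0.86 and passed (edgeR, adjusted p = 0.00589), it also passed without DDR1i replicate 3 (adjusted p = 0.0405) or DDR1i replicate 4 (adjusted p = 0.0480), and without RUNXi replicate 3 it was 0.47 (adjusted p = 0.0979). FTH1 passed under a replicate block as well, at the value given in the closing section. NCOA4 (0.12), IREB2 (0.14), ACO1 (−0.12) and SLC11A2 (0.01) had log2 fold changes within 1 SE of 0 or little beyond it, with adjusted p between 0.579 and 0.990 in edgeR. The median of the 7 genes was 0.14 against 0.01 over all genes.

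DDR1i was compared with the same 3 collagen libraries, so the 2 comparisons are not independent of each other. None of the 7 genes passed in the main quasi-likelihood fit of edgeR or in DESeq2, against 2.47% of the 13548 genes tested in edgeR. An unadjusted edgeR p under 0.05 was found for 2 of the 7, beside 2442 of all 13548 genes. The 2 members were the ferritin chains, with log2 fold changes of −0.39 for FTL (SE 0.139, edgeR adjusted p = 0.129) and −0.47 for FTH1 (SE 0.191, edgeR adjusted p = 0.198). The DDR1i libraries entered the rule that chose FTL, so its value here is not independent of the rule. TFRC differed by 0.08 (SE 0.130, edgeR adjusted p = 0.838). FTH1 passed in edgeR with no filter on low counts (−0.48, adjusted p = 0.0196), with a replicate block (−0.64, adjusted p = 0.00401) and with block and length trend removed (−0.52, adjusted p = 0.00145). The FTL value depended on single collagen libraries. It was −0.54 without collagen replicate 1 (edgeR adjusted p = 0.0470) and −0.20 without collagen replicate 4 (edgeR adjusted p = 0.540). NCOA4 (0.08), IREB2 (−0.07), ACO1 (0.07) and SLC11A2 (−0.22) had adjusted p between 0.620 and 0.894 in edgeR.

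Collagen replicate 4 also stood apart in a measure that bears on ferritin, whose transcripts are short. In each library the median log2 deviation of genes of 5163 bases or more was set against that of genes of 1972.75 bases or less. The difference was −0.74 in collagen replicate 4, −0.18 and −0.24 in collagen replicates 1 and 2 and 0.16 in replicate 3, and it lay between −0.22 and 0.28 in the other groups. With the trend removed from each library, FTL against collagen was 0.97 with RUNXi (edgeR adjusted p = 0.000155) and −0.25 with DDR1i (edgeR adjusted p = 0.347), and TFRC was 0.86 with RUNXi (edgeR adjusted p = 0.000233) and −0.10 with DDR1i. With collagen replicate 3 put back, FTL (edgeR adjusted p = 0.00594) and TFRC (0.97, edgeR adjusted p = 0.000132) were still higher with RUNXi than with collagen.

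**Figure D3:**
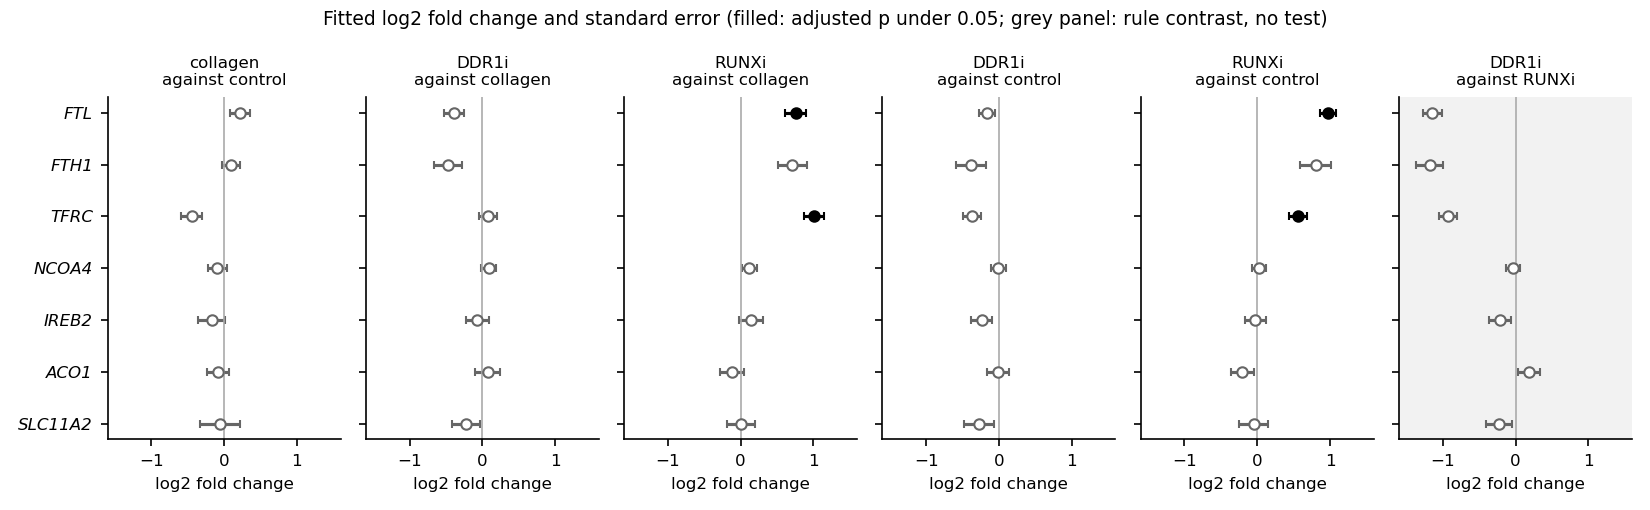
Fitted log2 fold change (x axis) of the 7 tested genes in each comparison, with bars of 1 standard error. Filled points passed an adjusted p of 0.05 in edgeR, and the grey panel is the comparison that chose the set and carries no test. FTL and TFRC are filled in both RUNXi panels and no gene is filled elsewhere.

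The control group, which does not share the question of the collagen libraries, gave another reference, although collagen and inhibitor then change together. Against control, 2 of 7 genes passed with RUNXi, where 0.401% of the 13213 genes tested did, and 1 of the 6 other than FTL. The RUNXi libraries entered the rule that chose FTL, so its test here is not independent of the rule either. FTL was higher by 0.97 on the log2 scale (SE 0.106, quasi-likelihood test of edgeR, Benjamini-Hochberg adjusted p = 5.96e-05). TFRC was higher by 0.56 (SE 0.124, edgeR adjusted p = 0.0483), a call at the edge of the threshold. It was lost when any of 8 single libraries was left out (control replicates 1, 2 and 3, DDR1i replicates 3 and 4, or RUNXi replicates 1, 2 and 4), with log2 fold changes of 0.48 to 0.56 and edgeR adjusted p of 0.0507 to 0.159. It was also lost with the length trend removed (0.51, edgeR adjusted p = 0.0725) and without control replicates 2 and 3 (0.40, edgeR adjusted p = 0.603). These control replicates had the fewest genes with a count of all 16 libraries, 12074 and 12480. FTH1 was 0.80 higher on the log2 scale with adjusted p = 0.220 in edgeR (SE 0.207), and it passed only without RUNXi replicate 4 among the single libraries left out (0.96, edgeR adjusted p = 0.0158). It also passed under a replicate block (edgeR adjusted p = 4.07e-05), and under the block with the length trend removed.

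With DDR1i against control none of the 7 genes passed in the main fit of edgeR or in DESeq2, where 0.212% of the 13213 genes did in edgeR. An unadjusted edgeR p under 0.05 was found for 1 of the 7, beside 678 of all 13213 genes. That gene was TFRC, at −0.37 on the log2 scale (SE 0.124, edgeR adjusted p = 0.544). Under a replicate block FTH1 and TFRC passed in edgeR, and with the length trend removed as well only FTH1 did. In the main fit FTL stood at −0.17 (SE 0.105) and FTH1 at −0.38 (SE 0.206), both with adjusted p = 0.998 in edgeR. FTL is again not independent of the rule, which the DDR1i libraries entered. All 7 fitted values were below 0, from −0.01 for NCOA4 and ACO1 downward, and the median was −0.24 against 0.01 over all genes.

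Collagen alone was compared with the control to ask whether the matrix itself moved the iron genes. In edgeR 0 of 7 passed, and 0 of the 13092 genes tested passed (0%), while 1754 genes had an unadjusted p under 0.05 and DESeq2 called 415. TFRC was the member with the largest difference, a log2 fold change of −0.45 (SE 0.142, edgeR unadjusted p = 0.00593, adjusted p = 0.188). DESeq2 called it at −0.44 (adjusted p = 0.0388). FTL (0.22, SE 0.137, edgeR adjusted p = 0.534) and FTH1 (0.09, SE 0.123, edgeR adjusted p = 0.8293) did not pass, and the remaining 4 lay between −0.17 and −0.06.

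The balance of the chains was examined because ferritin shells of different tissues differ in it. FTL had 12.61, 12.56, 11.96 and 16.58 counts per 100 FTH1 counts in control replicates 1 to 4, and 11.91, 13.58, 12.15 and 17.76 in collagen replicates 1 to 4. The DDR1i libraries had 15.79, 15.57, 12.88 and 18.01, and the RUNXi libraries 14.96, 15.89, 12.78 and 18.19. Replicate 4 was the highest of its group in all 4 groups, and the groups overlapped. In all 4 same-numbered pairs the ratio was higher with either inhibitor than in the control. The tests below are of unpaired groups and do not use this, and the labels do not say what a replicate number shares. The means were 13.4 ± 2.12 in the control, 13.9 ± 2.71 with collagen, 15.6 ± 2.10 with DDR1i and 15.5 ± 2.24 with RUNXi (SD, n = 4 each). Collagen replicate 3 is included in this mean and in the test below. Two-sided exact permutation tests against the control gave p = 0.229 for DDR1i, p = 0.257 for RUNXi and p = 0.714 for collagen (adjusted over these 3, 0.386, 0.386 and 0.714). The FTL counts of the inhibitor libraries entered the rule that chose the set, so the tests of DDR1i and RUNXi are not independent of it. The inhibitor groups had means of this ratio that differed by less than the SD of either, beside levels of both chains that did not overlap.

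**Figure D4:**
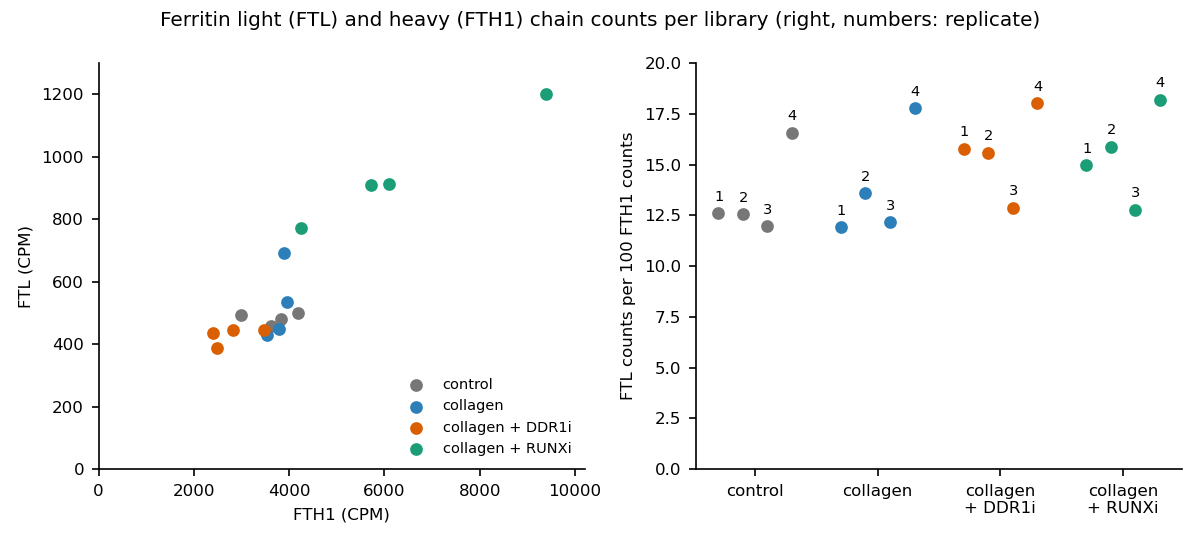
Left, FTL against FTH1 in CPM on linear axes, 1 point per library and coloured by group; right, FTL counts per 100 FTH1 counts by group, with replicate numbers above the points. The RUNXi libraries lie at the upper right of the left plot, and replicate 4 is the highest point of each group in the right plot.

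The rest of the iron pathway was read from lists of 69 further genes for uptake, storage, export, sensing, heme, mitochondrial iron and other IRE transcripts, of which 58 were tested in the fit of the inhibitors and 56 in the fits with the control. Few of them passed. Against collagen 3 of 58 rose with RUNXi, beside 4.05% of all genes called in either direction, and 2 of 58 with DDR1i, beside 2.47%, which is near the share of all genes. None fell, and the medians were −0.06 and −0.10 against 0.01 and 0 over all genes. In the 3 comparisons with control 0 of 56 passed in edgeR, beside 0.401% of all genes with RUNXi, 0.212% with DDR1i and 0% with collagen alone.

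HMOX1, heme oxygenase 1, which frees iron from heme, rose with RUNXi. It had 10.5, 7.80, 11.2 and 5.00 CPM in RUNXi replicates 1 to 4 against 3.59, 3.44 and 3.09 CPM in collagen replicates 1, 2 and 4, with 3.90 CPM in replicate 3. Every RUNXi library was above every collagen library, and control replicate 2 had no HMOX1 count. The log2 fold change against collagen was 1.34 (SE 0.380, quasi-likelihood test of edgeR, Benjamini-Hochberg adjusted p = 0.0448), and the call was lost with collagen replicate 3 included (edgeR adjusted p = 0.115), with all 4 groups in the fit (edgeR adjusted p = 0.257) or with a replicate block (1.26, edgeR adjusted p = 0.0593). DESeq2 gave no adjusted p for it.

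HERC2, the ubiquitin ligase that targets NCOA4 for degradation when iron is plentiful, passed with both inhibitors, at 0.71 with RUNXi (edgeR adjusted p = 0.0137) and 0.78 with DDR1i (edgeR adjusted p = 0.00835). Collagen replicates 1, 2 and 4 had 53.3, 49.5 and 40.4 CPM of HERC2 and collagen replicate 3 had 91.8 CPM, while the inhibitor libraries lay between 66.4 and 93.8 CPM and the control between 69.4 and 83.7 CPM. The collagen libraries of the fit were thus the low ones. SLC25A37, the mitochondrial iron importer mitoferrin-1, passed with DDR1i (0.59, edgeR adjusted p = 0.0390), and CDC42BPA, a kinase whose transcript is listed with an IRE, passed with RUNXi (0.50, edgeR adjusted p = 0.0435). The calls of HERC2, SLC25A37 and CDC42BPA were lost with collagen replicate 3 included (edgeR adjusted p from 0.211 to 0.500) and with the length trend removed (edgeR adjusted p from 0.144 to 0.527).

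By list, with RUNXi against collagen, where 4.05% of all genes passed, TFRC was the only one of 11 tested uptake genes that did. FTL, which chose the set, and HERC2 were the 2 of 6 storage genes. HMOX1 was the 1 of 17 heme genes and CDC42BPA the 1 of 4 other IRE transcripts, while 0 of 6 sensing genes, 0 of 20 mitochondrial genes and 0 of 1 export gene passed. The 20 mitochondrial genes had a median of −0.22. SLC40A1, CP and HEPH, which export or oxidize iron, were not tested for lack of counts, and the export list summed to less than 1 CPM in each library.

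FTL, FTH1 and HMOX1 are also known targets of NRF2, the transcription factor of the oxidative stress response, and 7 other NRF2 targets were examined beside them. The list was known to hold genes that differ in these libraries when it was chosen, so that its counts are descriptions. With RUNXi against collagen 3 of the 7 rose, beside 4.05% of all genes called, namely TXNRD1 (0.88, edgeR adjusted p = 0.000215), GCLC (0.77, edgeR adjusted p = 0.00943) and NQO1 (0.51, edgeR adjusted p = 0.0298). They encode thioredoxin reductase, the catalytic subunit of glutathione synthesis and a quinone reductase. The others did not pass, namely GCLM (0.48, edgeR adjusted p = 0.0632), SLC7A11 (0.43, edgeR adjusted p = 0.243), OSGIN1 (0.45, edgeR adjusted p = 0.671) and SRXN1 (−0.05, edgeR adjusted p = 0.878). Against control, NQO1 (0.81, edgeR adjusted p = 0.000900) and TXNRD1 (0.61, edgeR adjusted p = 0.0378) passed with RUNXi, beside 0.401% of all genes. With DDR1i against collagen SLC7A11, the cystine importer, fell by 0.79 on the log2 scale (edgeR adjusted p = 0.0491). The 7 genes summed to between 1055 and 1178 CPM in the RUNXi libraries and to between 649.7 and 928.9 CPM in the others, so that RUNXi did not overlap the rest. How often sums of other genes stand apart in this way was not counted. With collagen replicate 3 included the calls against collagen of NQO1 (edgeR adjusted p = 0.0517) and SLC7A11 (edgeR adjusted p = 0.370) were lost, as was that of SLC7A11 with all 4 groups in the fit (edgeR adjusted p = 0.274). That of TXNRD1 against control was lost with the length trend removed (edgeR adjusted p = 0.0597) and without control replicates 2 and 3 (edgeR adjusted p = 0.497).

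**Figure D5:**
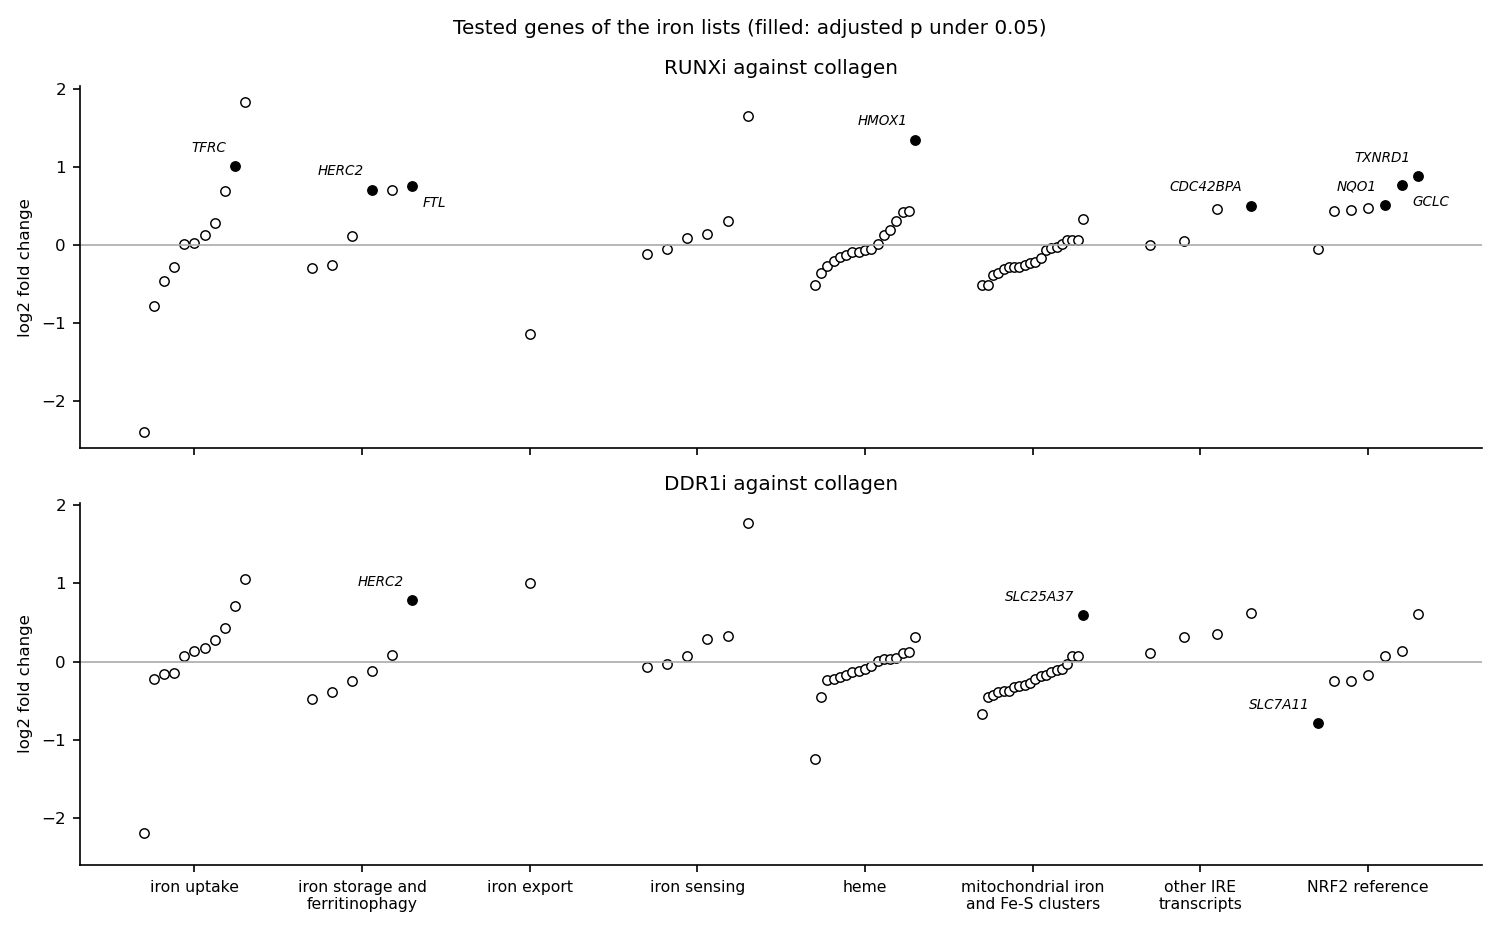
Fitted log2 fold change (y axis) of each tested gene of the iron lists and the NRF2 reference list against collagen, with RUNXi above and DDR1i below, sorted within each list. Filled and named points passed an adjusted p of 0.05 in edgeR. TFRC, HERC2, FTL, HMOX1, CDC42BPA and 3 NRF2 reference genes are filled with RUNXi, and HERC2, SLC25A37 and SLC7A11 with DDR1i.

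Across the 16 libraries the genes whose log2 CPM followed that of FTL most closely, of 13511 compared, included AKR1C1 (Pearson r = 0.939, Spearman rho = 0.874), PID1 (0.901 and 0.741), AKR1C2 (0.897 and 0.818) and AKR1C3 (0.891 and 0.838). The AKR1C genes are near copies of each other, between which reads can be split. Within the set, FTH1 had r = 0.897 (rho = 0.912), TFRC 0.677 (0.541) and ACO1 −0.612 (−0.262), while NCOA4, SLC11A2 and IREB2 lay between 0.037 and 0.124. These values are descriptions without a test. The 16 points share 4 groups, and the RUNXi libraries stand apart in FTL, which pulls the correlation of any gene that differs in that group.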

How the data were processed

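RNA-seq counts of 16 MCF10A libraries in 4 groups were used. The authors prepared TruSeq libraries, aligned the reads with STAR to GRCh37 (hg19 in the submitters' processing notes) and deposited raw counts per gene without normalization. The counting tool, annotation and use of strand are not given in the sources used here, so that reads shared with ferritin pseudogenes are uncertain. Total counts were 12184619 to 44332378, and counts of replicates differed by more than sampling noise (chi-square per degree of freedom at least 18.7).

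The robust quasi-likelihood test of edgeR 4.0.16 (R 4.3.3; TMM, filterByExpr) was run over all genes that passed the filter, and a gene was called at a Benjamini-Hochberg adjusted p-value under 0.05. The inhibitors and collagen replicates 1, 2 and 4 shared a fit, as did the control and inhibitors, and collagen was compared with control alone. DESeq2 1.42.0, other scalings, no filter, a length trend removed by a spline (4 degrees of freedom), a replicate block and leaving out each library were alternatives. Leaving out control replicates 2 and 3 together was added after the data were seen. The edgeR script was tested on simulated data. Log2 CPM for likeness used a prior count of 2. Lengths, positions and IREs came from GENCODE on GRCh37, to which 20676 names matched by current and 1348 by older symbols. Exact permutation tests used scipy 1.17.1.

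The members and lists were chosen with earlier results of these data known. Genes named beyond the members were list genes that passed a test, at most 4 per list and comparison, and the 5 genes most like FTL. PID1 and the AKR1C genes were named by that last rule. Of these genes, 1 is not reported here and was left out of its list.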

Additional observations from a re-analysis of the deposited data

Results flagged for a closer look

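In SLC11A2, collagen replicate 1 had 42.6 CPM, far above the 23.2 to 25.8 CPM of the other collagen libraries by Dixon's test. In the balance of the ferritin chains, control replicate 4 had 16.58 FTL counts per 100 FTH1 counts, far above the 11.96 to 12.61 of the other control libraries. Of 32 groups tested in this way 2 were picked out, where chance alone is expected to pick 1.6, since it flags about 1 in 20 groups.

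For FTL and FTH1 every DDR1i library lay below the collagen mean of 559.0 and 3871 CPM and every RUNXi library above it, with log2 fold changes between the inhibitors of −1.14 and −1.18. These means leave out collagen replicate 3. Single collagen libraries were near DDR1i in FTL, with 430.2 CPM in replicate 3 and 449.8 CPM in replicate 1, beside 446.1 CPM in the highest DDR1i library. How many of all genes show this pattern was not counted. The difference between the inhibitors was not tested, since it is the comparison that chose the genes.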

How the results depend on the processing

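Of 749 fitted member values under an alternative, 675 were counted as kept, 17 passed the threshold newly and 10 lost it. A tested value was kept if its direction and side of the threshold were. The 749 include 21 values of FTL with DDR1i against RUNXi, the comparison that chose the set, which carry no test. All 21 were counted as kept, since each held its direction and moved by less than the pooled SD of 0.198. With RUNXi against collagen FTL (0.60 to 0.97) and TFRC (0.86 to 1.09) passed in all 21 alternatives and FTH1 (0.47 to 0.90) in 6. Against control FTL passed in all 22, TFRC in 12 and FTH1 in 3. The RUNXi libraries entered the rule that chose FTL, so its passing in every alternative is a description. The number of members called changed in these alternatives. With RUNXi against collagen it was 2 to 3, and 3 wherever FTH1 passed. With DDR1i against collagen it was 1 in place of 0 with no filter, with the replicate block and with block and length trend removed, and 0 to 1 with single libraries left out. In these 3 fits the gene was FTH1, at −0.48, −0.64 and −0.52. With collagen against control it was 1 in DESeq2. With DDR1i against control it was 2 under the block (FTH1 −0.38 and TFRC −0.37) and 1 under block and length trend. With RUNXi against control it was 3 under the block, with or without the length trend removed, 1 to 2 with single libraries left out, 1 with the length trend removed (TFRC 0.51, edgeR adjusted p = 0.0725) and 1 without control replicates 2 and 3 (TFRC 0.40, edgeR adjusted p = 0.603). The cause of these changes was not tested. The labels do not say what a replicate number shares. Of 24 same-numbered pairs 7 correlated over 0.1 (−0.09 to 0.28), all 6 pairs of replicate 4 among them, and 12 of 16 libraries correlated best with their own number, a hint of pairing from the data and not from the design. In all 4 same-numbered pairs FTL per FTH1 count was higher with either inhibitor than in the control, which the permutation tests of unpaired groups do not use. Under the replicate block FTH1 passed with RUNXi against collagen (0.50, edgeR adjusted p = 0.0217) and against control (0.76, edgeR adjusted p = 4.07e-05).

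Reversed signs, 47 in number and none larger than 0.224, were found only for values that passed no test. With the length trend removed, and then with the block as well, ACO1 (−0.20, −0.18) and TFRC (−0.097, −0.043) reversed with DDR1i against collagen, IREB2 (−0.047, −0.020) and SLC11A2 (−0.072, −0.015) with RUNXi against collagen, ACO1 (0.12, 0.14), FTH1 (−0.20, −0.10) and FTL (−0.12, −0.081) with collagen against control, and NCOA4 (−0.044, −0.044) with RUNXi against control. SLC11A2 was −0.007 with RUNXi against collagen without the filter and 0.002 with RUNXi against control under the block. Without control replicates 2 and 3 NCOA4 was −0.12 and SLC11A2 0.061 with RUNXi, and SLC11A2 0.067 with collagen, against control. With single libraries left out the sign was not fixed for IREB2 (−0.23 to 0.089) and SLC11A2 (−0.38 to 0.082) with DDR1i against collagen, IREB2 (−0.012 to 0.29) and SLC11A2 (−0.15 to 0.30) with RUNXi against collagen, SLC11A2 (−0.36 to 0.22) with collagen against control, NCOA4 (−0.060 to 0.063) and ACO1 (−0.076 to 0.029) with DDR1i against control, and NCOA4 (−0.024 to 0.099), IREB2 (−0.11 to 0.043) and SLC11A2 (−0.21 to 0.22) with RUNXi against control.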
